A study of Schizosaccharomyces pombe with 2 samples.

Results

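Short-chain dehydrogenases were followed in a fission yeast (Schizosaccharomyces pombe) double mutant of the corepressor genes tup11 and tup12, compared with a wild-type strain. The set holds 7 gene names, SPCC1739.08c and 6 others grouped with it as related enzymes, and 6 of the 7 were found by name among 4954 gene features on the arrays. No spot carried the name SPAC8E11.10, which was therefore not analysed here under that name. The set was chosen by the log ratio of its leading gene, SPCC1739.08c, between the mutant and the wild type in these same arrays. The ratios of all members are therefore given as a description, with no test, and their sizes support nothing beyond themselves. The files used here carry no enzyme annotation, so membership of the family was taken from the name of the set and could not be checked against the data.

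Short-chain dehydrogenases are oxidoreductases that pass hydride between a substrate and the cofactors NAD(H) or NADP(H), usually on alcohols, sugars, lipids or other carbonyl compounds. They share a cofactor-binding Rossmann fold and a catalytic tyrosine and lysine, while overall sequence identity within the family is often low. Tup11 and Tup12 are WD-repeat proteins of the Tup1 type, which do not bind specific DNA themselves and are brought to promoters by DNA-binding repressors, among them the glucose repressor Scr1 and the iron repressor Fep1.

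Each of the 2 arrays was hybridised with cDNA from both strains. The labels write the mutant as Tup11,12D, and the D was read as deletion. They give the wild type no further genotype. Both strains had been grown in rich medium and harvested in logarithmic growth, and the label of 1 array adds YES medium and 30 degrees. Ratios in RNA of whole cultures cannot tell more expressing cells from more RNA per cell. According to the series design text, each array received its own RNA preparation and the dyes were swapped between the arrays, so n = 2 throughout. No source used here says whether the preparations came from separate cultures, and the spread between the arrays may in part be technical. Median gene signals ranged from 1340 to 4237 over the 4 array channels. Mean local background was 1.80 in the first and 408 in the second channel of array 1, and 753 in the first and 12.5 in the second channel of array 2. The dyes had thus changed places between the channel columns, and the first channel was read as the mutant on both arrays. That reading is likely but stated in no file header, and the opposite reading would turn every sign given here. A feature printed as tup1, which matched no gene of the ASM294v3 table, stood at -2.37 and -1.86 on the log2 scale, while the feature of tup11 stood at 0.95 and -0.11. The value of tup1 on array 2 and that of tup11 on array 1 rest on 1 spot each. Although tup1 was 4.32-fold lower in the mean, neither feature lost its signal in the mutant channel. The deletions were thus not verified, and a probe outside a deleted stretch would not show one.

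SPCC1739.08c was 29.1-fold higher in the mutant, with a log2 ratio of 4.86 ± 0.46 (SD, n = 2). Among the other 5 members the mean log2 ratio ran from -0.49 to 0.20, and no value of any of them on either array reached a 2-fold difference. Of the 4811 features tested, 268 reached it on at least 1 array, so most features did not either. With median centring, SPAC4H3.08 at -1.91 and SPCC663.06c at -1.22 passed it on array 1. SPCC1739.08c stood at 4.54 on array 1 and 5.18 on array 2. The highest value among the other members was 0.33 on array 1 and 0.62 on array 2. The leading gene was thus above every other member by at least 4.20 on array 1 and 4.56 on array 2 on the log2 scale, the wild-type signal being above background on array 1 only. Over all 4811 features with values on both arrays, limma called 3.43%, 2.41% as higher and 1.02% as lower (165 features, 116 higher and 49 lower, or 200 and 175 with print-tip loess, 190 and 166 with mean signals and 33 and 5 with median centring). No member's call is given, since the set was proposed from this contrast.

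**Figure D1:**
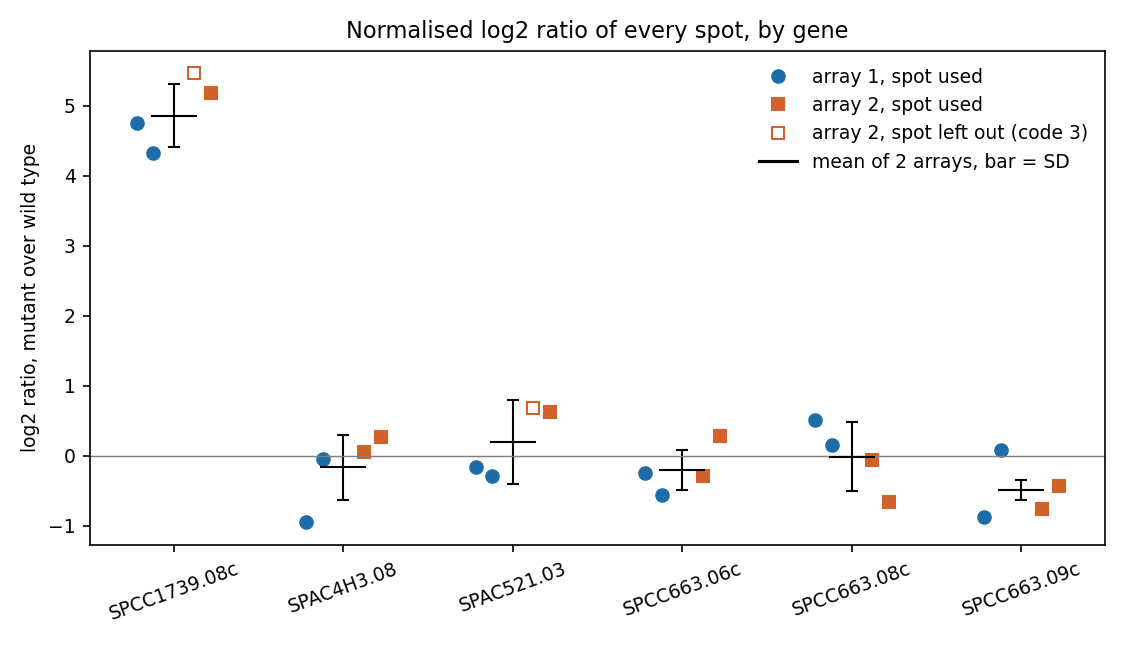
Normalised log2 ratio of mutant over wild type for each spot of the 6 members, with 2 spots per gene and array. Filled symbols are spots used, open symbols spots with quality code 3 that were left out, and black bars are the mean ± SD of the 2 arrays. Every spot of SPCC1739.08c lies between 4.32 and 5.47, while all spots of the other genes lie between -0.95 and 0.68.

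Each gene was printed as 2 spots per array, and the spots of SPCC1739.08c can be read singly. On array 1 its first spot had a background-subtracted median signal of 12877 in the mutant channel and 976 in the wild-type channel. The second spot of that array had 27908 and 3044. Although the second spot was brighter in both channels, the normalised log2 ratios of the spots, 4.76 and 4.32, differed by 0.43.

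On array 2 the first spot of SPCC1739.08c gave 17911 in the mutant channel and 86.0 in the wild-type channel. It carried quality code 3 in the mutant channel and was left out, at a log2 ratio of 5.47. The second spot, with 23676 and 272, gave 5.18. The value of array 2 thus rests on 1 spot, and with the left-out spot returned the mean over the arrays was 4.93.

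The wild-type signal of SPCC1739.08c was dim. Bacterial control spots, 96 in each channel, set the level for calling a signal well above background, at their 95th percentile. That limit was 1659 for the wild-type channel of array 1 and 488 for that of array 2, and 442 and 1077 for the mutant channel. All 4 mutant-channel signals of SPCC1739.08c passed it by a wide margin. In the wild-type channel the mean of 2010 on array 1 passed, though only 1 of its 2 spots did singly, whereas the 272 on array 2 did not. The fold was 23.3 on array 1, where the wild type was measured above background, and 36.3 on array 2, where it was not. Over the 9 other settings that gave the gene a value, its fold ran from 21.6 with mean signals to 42.3 with plain background subtraction. In the authors' deposited table the log10 values, turned to log2, were 4.82 on array 1 and 4.72 on array 2, which corresponds to 27.2-fold.

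**Figure D2:**
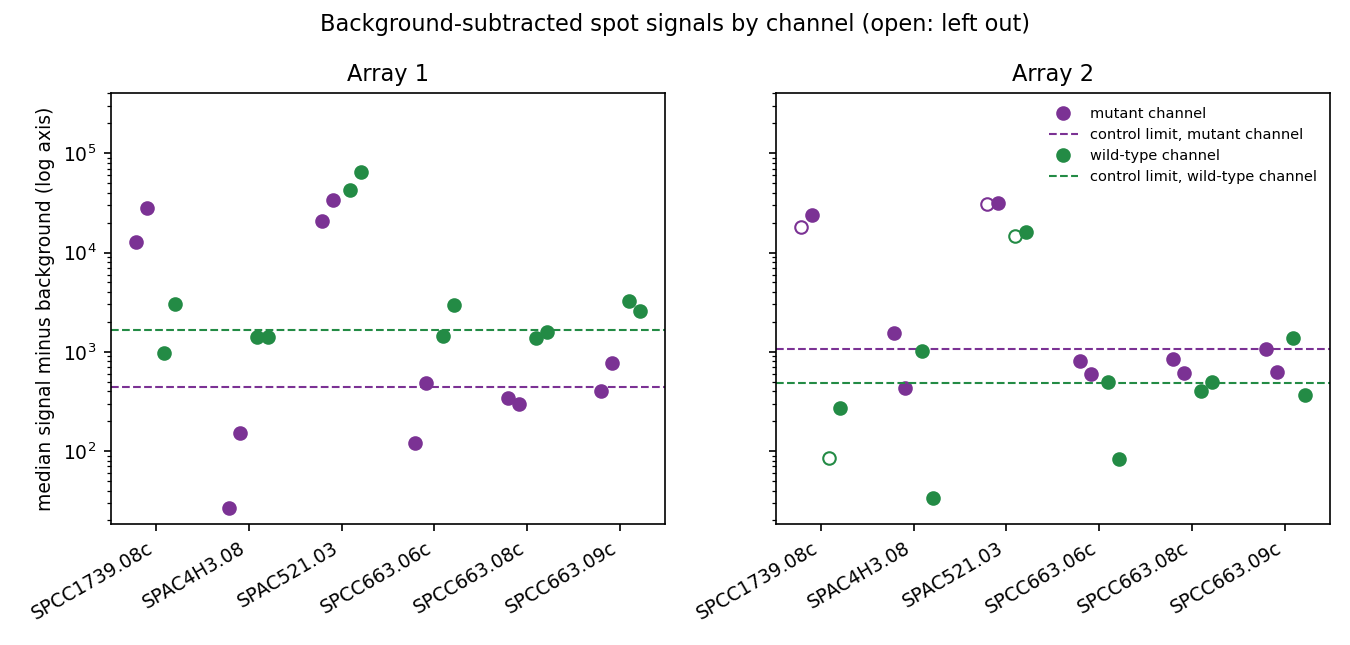
Background-subtracted median signals of each spot of the 6 members in the mutant and wild-type channels, on a log axis, for array 1 (left) and array 2 (right). Dashed lines are the control limits of the channels (442 and 1659 on array 1, 1077 and 488 on array 2), and open symbols are spots left out. Only SPCC1739.08c has a mutant signal far above and a wild-type signal near or under its limit on both arrays.

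SPAC521.03 was the other bright member. Its signals of 20729 and 33706 in the mutant channel and 42401 and 64849 in the wild-type channel of array 1 were far above the limits, as were 31616 and 15928 in the spot used on array 2. The gene stood at -0.22 on array 1 and 0.62 on array 2, with a mean of 0.20 ± 0.60 (SD, n = 2). Its sign thus turned between the dye-swapped arrays, while the spots within an array differed by 0.13 and 0.06. No direction in terms of strains can be given for it. One further limit is that the signal of the brightest wild-type spot, 65405 before subtraction, lay just under the saturation value of 65535. The spot with quality code 3 on array 2, which was left out, stood at 0.68 beside the 0.62 of the spot used.

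SPAC4H3.08 was the dimmest member in the mutant channel of array 1, with mutant-channel signals of 27.0 and 153 and wild-type signals of 1416 and 1409. On array 2 its spots disagreed in brightness, with 1548 and 1007 in the first spot and 436 and 34.0 in the second. Its log2 ratio was -0.50 on array 1 and 0.17 on array 2, with a mean of -0.16 ± 0.47 (SD, n = 2). The array 1 value came from spots at -0.95 and -0.04, which lay farther apart than the arrays did. Its mutant channel passed the control limit on no array and its wild-type channel on 1.

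The remaining 3 members, SPCC663.06c, SPCC663.08c and SPCC663.09c, lie next to each other on chromosome III, in that order among protein-coding genes of the ASM294v3 table, with a pseudogene between SPCC663.06c and SPCC663.08c. The table names SPCC663.06c osr1 and gives no symbol for the others. SPCC663.06c stood at -0.40 on array 1 and -0.003 on array 2, a mean of -0.20 ± 0.28 (SD, n = 2). SPCC663.08c stood at 0.33 on array 1 and -0.36 on array 2, a mean of -0.01 ± 0.49. SPCC663.09c stood at -0.39 on array 1 and -0.59 on array 2, a mean of -0.49 ± 0.14.

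Of these 3 neighbours, SPCC663.09c was the lowest and SPCC663.08c turned its sign between the arrays. SPCC663.09c was lower in the mutant on both arrays, 1.40-fold in the mean, yet of its 4 spots 1 stood at 0.09 and the others at -0.42, -0.75 and -0.87. Taken from the first printed set of spots alone its mean was -0.81, and from the second set alone -0.17. SPCC663.08c passed the control limit in neither strain, on neither array, so its ratio is one of background-level signals and no fold is given. The mutant channel of SPCC663.06c likewise passed on no array, while its wild-type channel passed on 1. In SPCC663.09c the wild-type channel passed on both arrays and the mutant channel on 1.

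Before normalisation the channel ratios of the 4 members with weaker signals differed widely between the dye-swapped arrays. The balance of the channels turned over all genes too. Their median signal, before subtraction, was 1340 in the mutant and 4237 in the wild-type channel of array 1, and 2548 and 1351 on array 2. In SPAC4H3.08 and the 3 SPCC663 genes, the mutant channel over the wild-type channel lay between 0.02 and 0.30 over 8 spots of array 1, and between 0.78 and 12.8 over 8 spots of array 2. In SPAC521.03 the same ratio was 0.49 and 0.52 on array 1 and 2.08 and 1.98 on array 2. In SPCC1739.08c it was 13.2 and 9.17 on array 1 and 208 and 87.0 on array 2, so that the mutant channel was the brighter one whichever dye it carried. The small values of the other members moved with the normalisation, and median centring in place of the loess curve gave SPAC4H3.08 -1.91 on array 1 and 0.42 on array 2. SPAC521.03 stood at 0.69 and 0.35 under the same centring, with like signs on both arrays.

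Ordered by mean log2 ratio, the members ran SPCC1739.08c, SPAC521.03, SPCC663.08c, SPAC4H3.08, SPCC663.06c and SPCC663.09c. From SPAC521.03 to SPCC663.06c, neighbours in this order differed by less than the larger SD of the pair. The last step, from SPCC663.06c to SPCC663.09c, barely exceeded the larger SD. The order of the other 5 is therefore not settled. Their median was -0.16, beside 0.01 over all features tested. Of these 5 members, 2 were lower in the mutant on both arrays, none was higher on both and 3 had opposite signs, while over all features 29.6% were lower on both, 30.2% higher on both and 40.2% of opposite sign. The tally rests on SPCC663.06c, whose -0.003 on array 2 became 0.009 with print-tip loess, 0.46 with median centring, 0.28 in the second printed set and 0.10 in the authors' deposited table. The median SD of the 5 members was 0.47, beside 0.21 over all features.

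The features with the most similar pair of values were searched by distance between the log2 ratios of the arrays, which is a likeness over 2 points. The 5 nearest to SPCC1739.08c were fip1, at a distance of 0.84, inv1 (1.22), cta3 (1.47), gcd1 (1.69) and gld1 (1.76). The gene fip1, which encodes the iron permease of reductive iron uptake, stood at 4.09 on array 1 and 4.47 on array 2. The invertase gene inv1 stood at 5.68 and 5.62, and cta3, which encodes a cation-transporting ATPase, at 4.73 and 6.64. The glucose dehydrogenase gene gcd1 stood at 4.19 and 3.53, and the glycerol dehydrogenase gene gld1 at 3.56 and 3.72. These 5 and SPCC1739.08c had the 6 highest fitted means of all features. Their order at the top is not settled, since on array 2 the wild-type signal of cta3 was below its local background. That of inv1 on array 2, at 138, was under its control limit of 488. A spot of inv1 was saturated, but its used spots, at most 50672 after subtraction, lay under the saturation value. The values of inv1 and cta3 rest on 1 spot on each array, and that of fip1 on array 2 on 1 spot. Like SPCC1739.08c, the genes inv1, cta3 and gcd1 had a wild-type signal well above background on 1 of the arrays, whereas fip1 and gld1 had it on both.

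**Figure D3:**
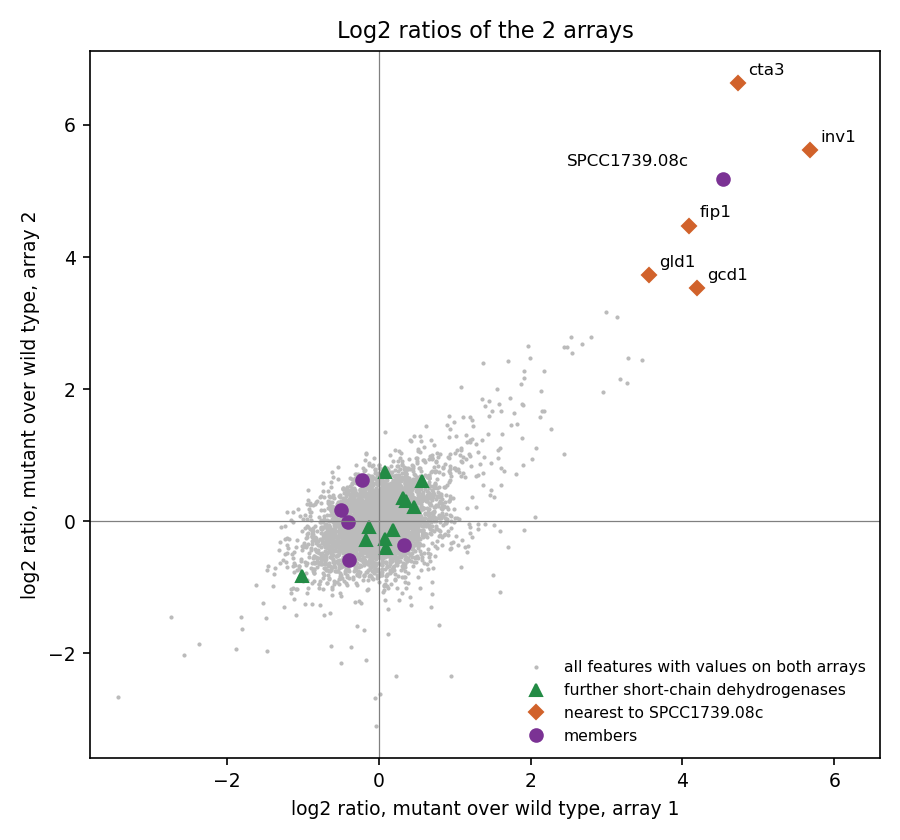
Log2 ratio of mutant over wild type on array 1 (horizontal) against array 2 (vertical). Grey points are all 4811 features with values on both arrays, circles the 6 members, diamonds the 5 features nearest to SPCC1739.08c and triangles 11 further short-chain dehydrogenases. SPCC1739.08c lies at the upper right among the 6 features with the highest means, and the other members lie in the central cloud.

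A wider list of 13 genes was drawn up from general knowledge of the enzyme family, since no annotation of products was given, and 11 of them had values on both arrays. Of these 11, 1 fell, none rose and 10 did not pass limma, where 1.02% of all features fell and 2.41% rose. Their median log2 ratio was 0.03, beside 0.01 over all features, and the range was -0.92 to 0.60. In 5 of the genes the value was above 0 on both arrays, in 3 below 0 on both, and in 3 the sign differed.

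The gene that fell was SPBC30D10.05c, at -1.01 on array 1 and -0.83 on array 2, a mean of -0.92 ± 0.12 (SD, n = 2), or 1.89-fold lower (limma adjusted p = 0.0353). Its signals passed the control limit in every channel. Of 10 other settings, 6 called it and 4 did not, with adjusted p-values from 0.000257 to 1.0. The next lowest were pbr1 at -0.22 ± 0.09 and SPAC922.06 at -0.15 ± 0.35.

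At the upper end of this list SPAC22A12.17c stood at 0.58 on array 1 and 0.62 on array 2, a mean of 0.60 ± 0.03 (limma adjusted p = 0.167). SPCC162.03 stood at 0.41 ± 0.46, with no channel above its control limit, and SPCC736.13 at 0.34 ± 0.18. Among named enzymes, ifa38, the ketoreductase of very-long-chain fatty acid elongation, stood at 0.33 ± 0.03. The gene ayr1, for an acyl-dihydroxyacetone-phosphate reductase of glycerolipid synthesis, also stood at 0.33 ± 0.03. The similarly named ayr2 stood at -0.10 ± 0.03, with no channel above its control limit. The sterol ketoreductase gene erg27 stood at -0.10 ± 0.25 and the mitochondrial gene oar2, for an oxoacyl reductase of fatty acid synthesis, at 0.03 ± 0.23, neither strain being well above background for the latter. By mean, the highest of these 11 genes, at 0.60, lay far under the 4.86 of SPCC1739.08c.

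The genes on each side of the members were read next, to see whether they moved with them. Of the 6 protein-coding genes nearest to SPCC1739.08c, 3 on each side, none was called, where 3.43% of all features were. So few genes without a call say little of the neighbourhood. The gene cti1, whose annotated span overlaps that of SPCC1739.08c and by its name runs on the other strand, stood at -0.50 on array 1 and -0.21 on array 2, with all channels above their limits. The sources used here do not say whether either probe covers the shared stretch or reads 1 strand only. The neighbour on the other side, cox13, which encodes a subunit of cytochrome c oxidase, stood at 0.30 on array 1 and -1.08 on array 2. The genes set5, met1, mug33 and cdc11 had means of -0.31 ± 0.44, -0.22 ± 0.26, 0.15 ± 0.21 and 0.003 ± 0.05.

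**Figure D4:**
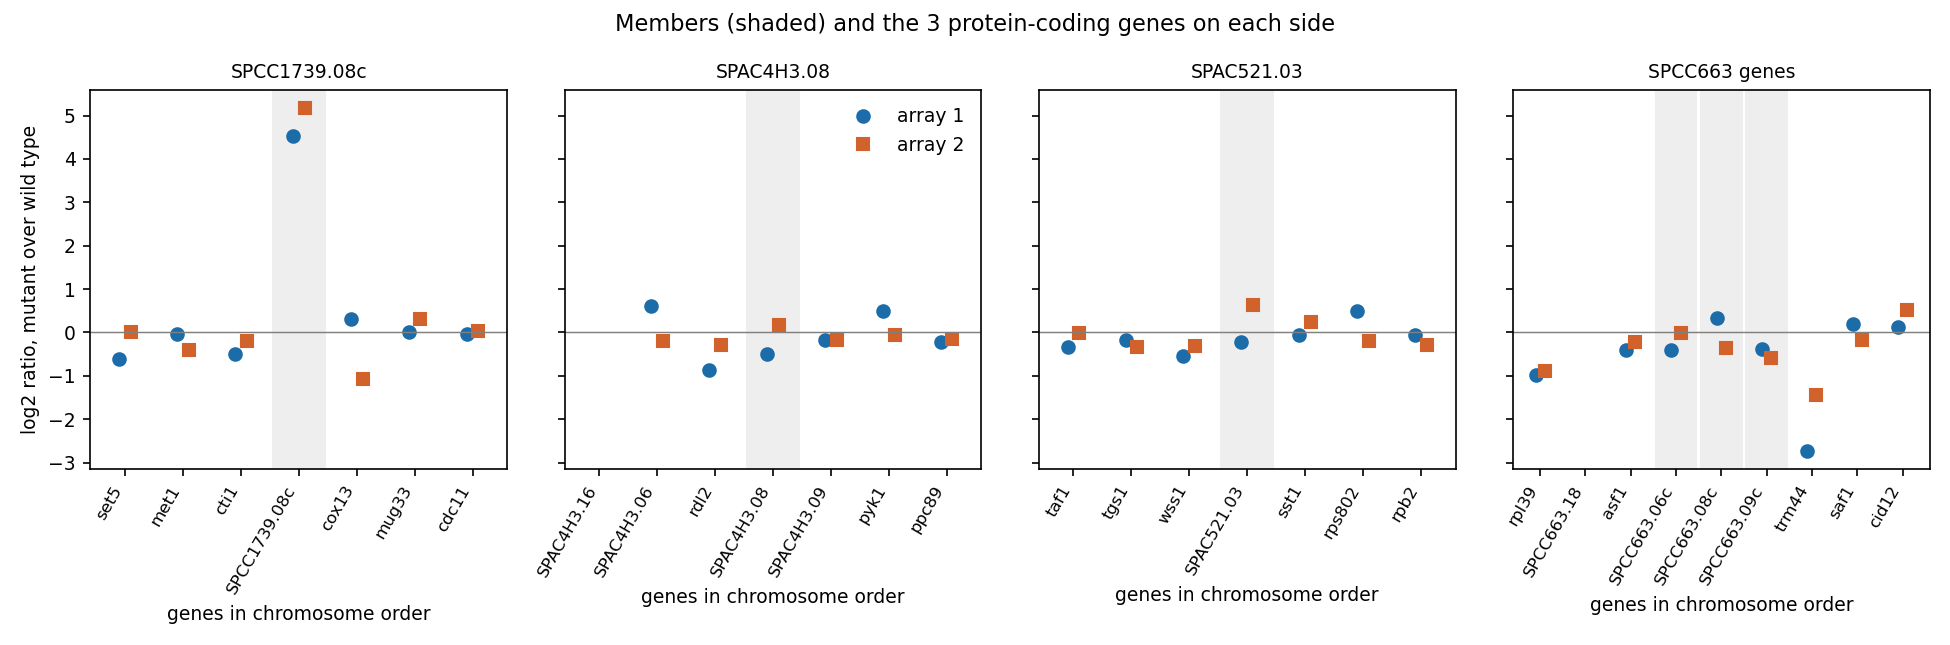
Log2 ratio of mutant over wild type on array 1 (circles) and array 2 (squares) for the members (shaded) and the 3 protein-coding genes on each side, in chromosome order. A gene name without symbols had no value. SPCC1739.08c stands at 4.54 and 5.18 beside neighbours between -1.08 and 0.30, and trm44, next to SPCC663.09c, stands at -2.74 and -1.45.

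Over all members analysed, 24 different neighbours were considered and 22 had values. Of these 22, 2 fell, none rose and 20 did not pass limma, where 1.02% of all features fell and 2.41% rose. The neighbours had a median of -0.18 beside 0.01 over all features. Both that fell flank the SPCC663 genes. Next to SPCC663.09c, trm44, which encodes a tRNA methyltransferase, stood at -2.74 on array 1 and -1.45 on array 2 and was at least 3.50-fold lower (limma adjusted p = 0.00208), the mutant not being well above background. It was called in 10 of 11 other settings. On the far side of the cluster, rpl39, a gene of the large ribosomal subunit, stood at -0.98 and -0.89 and was 1.92-fold lower (limma adjusted p = 0.0304), a call that 5 of 11 other settings did not make.

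Between these, asf1, which encodes a histone chaperone next to SPCC663.06c, stood at -0.41 on array 1 and -0.23 on array 2. Beyond trm44, saf1 stood at 0.01 ± 0.25 and cid12 at 0.32 ± 0.28. The SPCC663 genes thus lie between the genes that fell without approaching the values of trm44. Among the neighbours of SPAC4H3.08, the lowest was rdl2 at -0.57 ± 0.41. Around SPAC521.03 all values lay between -0.55 and 0.50, and sst1, whose span overlaps that of SPAC521.03, stood at -0.07 on array 1 and 0.24 on array 2.

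**Figure D5:**
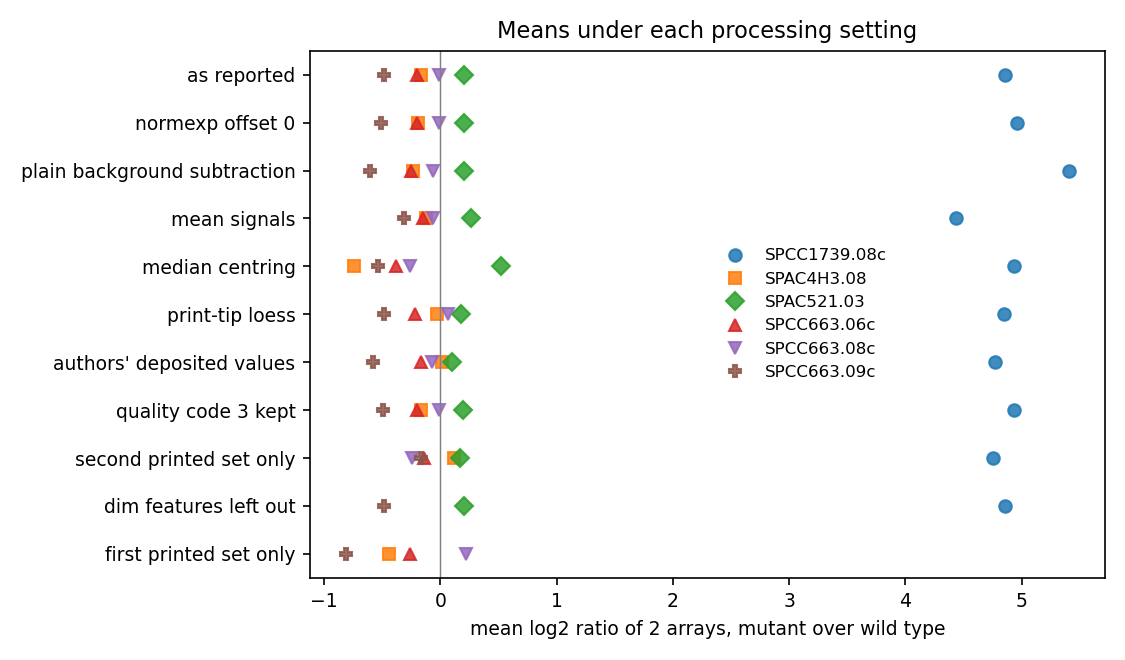
Mean log2 ratio of mutant over wild type of each member as reported and under the other processing settings that gave it a value. SPCC1739.08c runs from 4.44 to 5.40 over the settings, and the other members from -0.81 to 0.52.

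The separation between SPCC1739.08c and the rest of the set did not depend on the setting among those run. All settings used the same 2 arrays from which the set was chosen, so they lend the separation no separate support. The lowest mean of SPCC1739.08c over the settings, 4.44, lay above the highest of any other member, 0.52. SPAC4H3.08 and SPCC663.08c each changed the sign of their mean in 2 of 9 settings. The first printed set of spots alone gave no value for SPCC1739.08c, because its spot on array 2 carried code 3.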

How the data were processed

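Members and lists were chosen with earlier results of these data known. Gene names, chromosomes and gene order came from the ASM294v3 table. Its coordinates served for the gene order and for the overlap of annotated spans, and no sequences were used here.

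Spot intensities (foreground and local background, mean and median) were deposited as linear values with a quality code per the file headers. The sources used here give neither the image software nor what the codes mean. The authors also deposited Lowess-normalised ratios, per the series design text. Their log10 scale and first-over-second-channel direction were read from the values, since the deposited columns correlated with the scanner log ratios at 0.78 (array 1, 7112 spots) and 0.96 (array 2, 6588 spots), with medians of -0.01 and 0.02. Which strain the numerator holds is unstated.

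Median signals were corrected by normexp (offset 50) and normalised by 1 loess curve per array, with control spots at weight 0. Spots with code 3 were left out and the spots of a feature averaged. Log2 ratios were fitted by limma 3.58.1 in R 4.3.3 with Benjamini-Hochberg adjustment (threshold 0.05) over 4811 features. With 1 residual degree of freedom, the prior gave 9.02 of 10.02 degrees of freedom. Per-channel levels came from Aquantile normalisation. Precision is limited by having 2 arrays. Other settings changed the background correction, normalisation, signal column, spot and dim-feature filters, printed set and variance prior.

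Named genes were the members, 3 protein-coding genes on each side of each, the 5 features nearest to SPCC1739.08c, and the 3 highest and lowest of the wider list. The genes ifa38, ayr1, erg27 and oar2 were added for their known roles after values were seen, and ayr2 for its name. The planned protein identities and promoter motifs needed sequence tables and were not run.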

Additional observations from a re-analysis of the deposited data

How the results depend on the processing

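The log2 ratio of SPCC1739.08c was 5.40 with plain background subtraction, a shift larger than the SD of the arrays, and the cause was not tested. The 8 other settings with a value moved it by less, and single arrays gave 4.54 and 5.18. The number of features called by limma was 165 as reported and 139 with a normexp offset of 0. With spots of quality code 3 kept, the number was 243 (4954 tested). The number was 60 with plain background subtraction, 38 with median centring, 356 with mean signals and 375 with print-tip loess. It was 288 with an intensity trend in eBayes and 311 with dim features left out (3613 tested). The first or second printed set alone gave 102 and 92, where fewer spots entered. With the authors' deposited values limma called 0 (592 at an unadjusted p under 0.05), where 72 features had equal rounded values on both arrays. With spots at their floor kept, a setting chosen after seeing the data, 8 were called. Among the other members, SPAC4H3.08 moved by more than its SD with median centring (-0.75), and SPCC663.09c in 3 of its 10 settings, including the single printed sets (-0.81 and -0.17). Leaving out dim features dropped SPAC4H3.08, SPCC663.06c and SPCC663.08c, and the first printed set alone gave no value for SPAC521.03. The strains were paired within each array, and the fit was made on those ratios. No further pairing was possible because the arrays form 1 group of direct comparisons. Dim signals limit what can be said of SPAC4H3.08 and the SPCC663 genes.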

Other observations

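A feature printed as sou1 matched no gene of the ASM294v3 table. It may read SPAC8E11.10, the member not found by name, but no source used here pairs them. The feature was picked for its name and not for its values. It stood at 0.10 on array 1 and 0.44 on array 2, a mean of 0.27 ± 0.24 (SD, n = 2), passed the control limit in every channel, and was not called by limma (adjusted p = 0.577).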
